A study of Mus musculus with 4 samples.

Results

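The transcription factors of cartilage and bone formation, Sox9, Sox5, Sox6, Runx2, Runx3, Sp7, Dlx5, Sox4 and Creb3l1, were followed in spatial transcriptomes of ossifying muscle. They were chosen by gene symbol, 9 of the 32285 features of each count table, and each symbol matched 1 feature (Sox9 is ENSMUSG00000000567, Runx2 ENSMUSG00000039153 and Sp7 ENSMUSG00000060284). The sections were tibial muscle of Nse-Bmp4 mice on a C57BL/6 background, 6 to 8 weeks old, either uninjured (day 0) or taken 1, 3 or 7 days post injury (dpi) with cardiotoxin (CTX), a venom toxin that kills muscle fibres. All 4 groups carry the transgene, in which the promoter of rat neuron-specific enolase, active mainly in neurons, drives the bone-inducing ligand Bmp4, so neither a wild-type muscle nor a sham injury enters any comparison. There was 1 section per day, the labels state that 3 muscles were mixed for each group, and each capture spot holds several cells.

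In skeletal development, Sox9 commits mesenchymal cells to cartilage and, with Sox5 and Sox6, drives the genes of cartilage matrix. Runx2, helped by Runx3, is required for chondrocyte hypertrophy and for the osteoblast lineage, and Sp7 (osterix) acts downstream of Runx2. Dlx5 is a homeobox gene induced by BMP signalling, Sox4 is a SOX protein of progenitor cells, and Creb3l1 (OASIS) is a membrane-bound factor of secretory cells that promotes type I collagen production. Several of them have other settings too: Sox6 represses slow-fibre genes in muscle, and Runx3 is used by T cells, natural killer (NK) cells and macrophages.

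Runx2 and Runx3 were the members that moved together early, and both have a promoter with repeats of the element to which RUNX proteins bind. The windows are from RefSeq on GRCm38.p6, and the 250 bases before each start site are shown 5′ to 3′ with AACCACA in capitals; its reverse, TGTGGTT, was searched for as well. Mmp13, a collagenase of hypertrophic cartilage that was called higher on the same days, is shown beside them. The Runx2 window lies at chr17:44814628-44814877 on the minus strand, that of Runx3 at chr4:135120395-135120644 on the plus strand and that of Mmp13 at chr9:7272264-7272513 on the plus strand.
Runx2: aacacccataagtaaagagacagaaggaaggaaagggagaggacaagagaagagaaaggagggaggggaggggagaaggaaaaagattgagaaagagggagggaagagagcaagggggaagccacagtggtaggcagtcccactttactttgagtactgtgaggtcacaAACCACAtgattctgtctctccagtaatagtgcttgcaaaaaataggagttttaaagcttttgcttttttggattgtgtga
Runx3: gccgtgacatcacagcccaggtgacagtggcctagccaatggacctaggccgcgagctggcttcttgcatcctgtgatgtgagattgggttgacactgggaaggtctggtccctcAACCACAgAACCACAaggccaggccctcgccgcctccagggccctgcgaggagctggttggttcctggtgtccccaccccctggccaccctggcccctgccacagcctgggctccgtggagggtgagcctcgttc
Mmp13: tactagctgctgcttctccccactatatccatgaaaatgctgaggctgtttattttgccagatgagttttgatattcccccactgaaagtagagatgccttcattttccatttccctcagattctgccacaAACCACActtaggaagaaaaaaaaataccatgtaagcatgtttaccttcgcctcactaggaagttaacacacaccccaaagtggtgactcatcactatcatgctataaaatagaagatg
Runx2, bases 23 to 37 after the start: AACCACAgAACCACA

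With the 50 bases after the start counted in, the Runx2 window held 3 matches, the Runx3 window 2 and the Mmp13 window 1. Of 32851 promoter windows of the same 300 bases, 5.27% held at least 1 match, 0.204% at least 2, and 3 windows held 3 or more. The other 9 member windows of this length, those of Sox5, Sox6, Sox4 and a further one of Runx3, held none. Nor did the windows of the hypertrophic genes Ihh, Alpl, Pth1r and Col10a1. The windows shown were picked because they hold the letters, and a match is a description, not evidence of binding.

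The sections held 2107, 2667, 3029 and 3032 spots at days 0, 1, 3 and 7, with 16777832 to 56113066 UMIs (unique molecular identifiers, counted RNA molecules), and day 1 was the shallowest, with a median of 6322 UMIs per spot. Barcodes of the fixed array recurred between sections (1539 to 2311 per pair) and do not mark shared tissue. Fibre RNA, the defining RNA of the labelled tissue, was found in all sections, and the fast and slow myofibre lists held from 3.65% (day 3) to 12.3% (day 0) of the UMIs. A level is given in CPM, the UMIs of a gene scaled to a section total of 1000000, with an exact Poisson 95% interval. A gene was called higher or lower when its CPM ratio was at least 2 in that direction and the 95% interval of the ratio (Clopper-Pearson, on the split of UMIs) excluded 1. All intervals cover counting error only: a single section per day gives no spread between animals, so nothing here carries a p-value. In a bulk sum, fewer cells of a type and less RNA per cell cannot be told apart. CPM values of different genes are not compared with each other.

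The 9 factors did not appear together. Sox9, Runx2 and Runx3 were called higher than in uninjured muscle from 1 dpi onward, Sox5, Sp7, Dlx5 and Sox4 only at 7 dpi, and Sox6 and Creb3l1 at none of the days. Against day 0, 3 members were called higher and 2 lower at 1 dpi, where 15.5% of the 17250 features with at least 10 UMIs were called higher and 9.10% lower. At 3 dpi 3 members were called higher and 1 lower, with 30.4% and 7.30% of all features. At 7 dpi 7 of 9 were called higher and none lower, with 29.3% and 1.70% of all features. The median log2 ratio of all genes with at least 100 UMIs in the 2 sections was 0.17, 0.57 and 0.61 at days 1, 3 and 7, and with edgeR TMM factors, which centre it near 0, the calls over all features went from 5241 higher and 1259 lower to 3107 and 2596 at 3 dpi, from 5052 and 294 to 2281 and 964 at 7 dpi, and from 2667 and 1570 to 2056 and 2071 at 1 dpi. The first day of each member stayed as given with these factors, except that Sox4 was then called higher on no day.

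**Figure D1:**
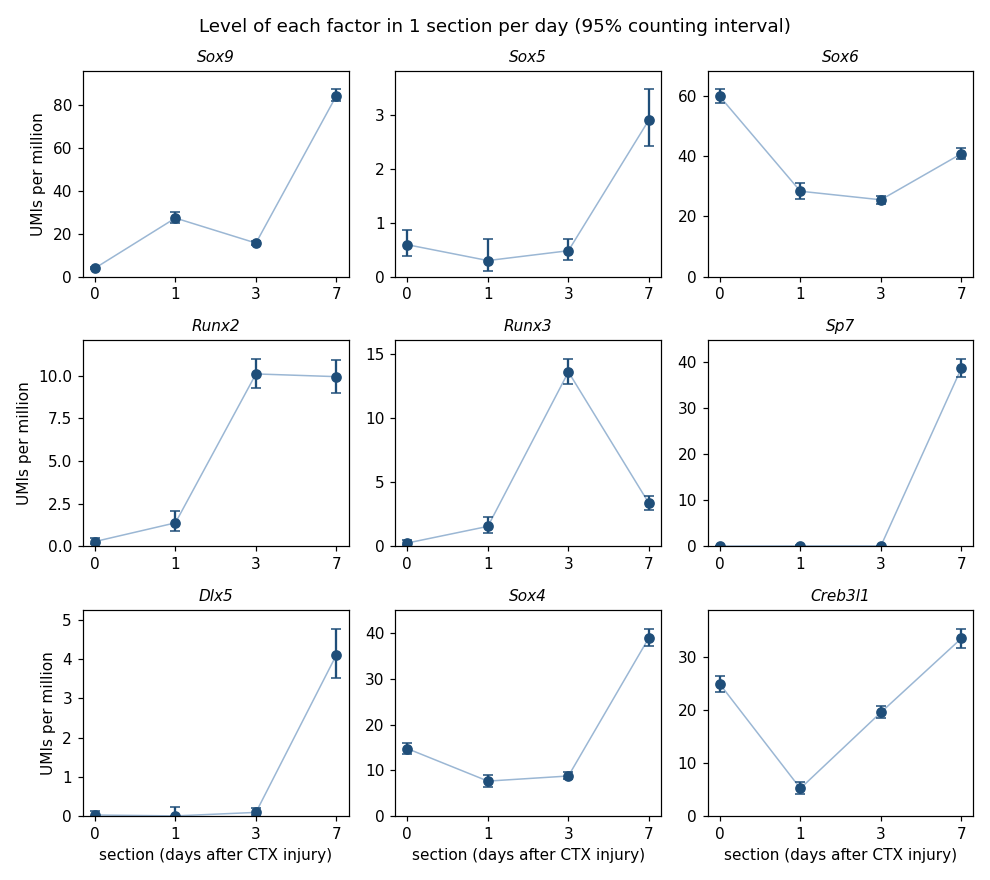
Each panel plots 1 factor, with the 4 sections on the x axis (days after CTX injury, evenly spaced) and its level in CPM on the y axis, each panel on its own scale; points are the section values and bars the exact Poisson 95% intervals. Sp7 and Dlx5 lie near 0 until day 7, Runx2 is as high at 3 dpi (10.1) as at 7 dpi (9.94), and Runx3 is highest at 3 dpi (13.6).

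Sox9, the cartilage commitment factor, was at 3.90 CPM (171 UMIs) at day 0, 27.3 (458 UMIs) at 1 dpi, 15.6 (877 UMIs) at 3 dpi and 84.5 (3533 UMIs) at 7 dpi. It was highest at 7 dpi and second highest at 1 dpi, and no 2 sections overlapped in their intervals. The ratio to day 0 was 7.00 (95% interval 5.86 to 8.40) at 1 dpi, 4.01 (3.40 to 4.75) at 3 dpi and 21.7 (18.6 to 25.4) at 7 dpi. Between 1 and 3 dpi Sox9 stood at 0.573 of its level (0.511 to 0.642), short of the call, and at 0.446 of it with TMM factors, which is a call.

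The day 1 signal of Sox9 was concentrated in few spots. Its 458 UMIs lay in 266 of 2667 spots, 43 of those spots held 3 or more, and these 43 spots had 44.3% of the UMIs. At 3 dpi the 877 UMIs were spread over 675 spots, and spots with 3 or more held 15.1%. The variance of the depth-adjusted counts, which is 1 for counts scattered at random over spots according to their depth, was 3.34 at 1 dpi, 1.16 at 3 dpi, 4.19 at 7 dpi and 1.21 at day 0. The excess over 1 rises with the level of a gene, so the days are not ranked by it. At 1 dpi this variance was 2.39 even for Runx2, with 23 UMIs in 23 spots, and 1.92 for Runx3, with 26 in 26. The value of Sox9 at 1 dpi is therefore not by itself a sign of clustering.

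The company of Sox9 in these spots differed between days 1 and 7. At 1 dpi the 5 genes most like it across spots, by Pearson's r of depth-adjusted counts over 2667 spots that share 1 library, were Xirp1 (r = 0.51), Slc38a2 (0.50), Dusp5 (0.45), Ppp1r15a (0.39) and Ddit3 (0.39). Xirp1 encodes a repair protein of striated muscle, Slc38a2 an amino acid transporter, Dusp5 a phosphatase of the ERK pathway, and Ppp1r15a and Ddit3 (CHOP) belong to the integrated stress response. Dusp5 was at 94.9 CPM in the spots with a Sox9 UMI and at 12.1 CPM in the others, a description of the genes that the correlation chose.

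Cartilage RNA was sparse at 1 dpi, with 254 UMIs of the 13 cartilage matrix genes, and was not seen to go with Sox9. These genes summed to 15.3 CPM in the 266 spots with Sox9 and to 15.1 CPM in the other 2401 (ratio 1.01, 0.673 to 1.48). Matn1, Snorc, Hapln1, Cnmd and Col9a2 had no UMI in that section, which allows up to 0.220 CPM each. Beside this, the 6 neutrophil genes were at 233 against 147 CPM and the 6 regenerating-muscle genes at 136 against 80.8 CPM. The Schwann cell (36.1 against 98.1 CPM), adipocyte (113 against 273) and smooth muscle (99.8 against 172) lists were lower in the spots with Sox9. In the 10% of spots richest in fast myofibre RNA, Sox9 was at 4.19 CPM against 30.7 in the rest (ratio 0.137, 0.0621 to 0.262; 22.5% of all features were called lower). In the 10% richest in neutrophil RNA it was at 69.0 against 24.8 CPM (ratio 2.79, 2.11 to 3.62); 14.5% of all features were called higher in those spots, whose median depth was 2591 UMIs against 6709 (of the list, the defining marker Ly6g had 1 UMI in that section and none in the others). The part of neutrophil RNA or of depth in the Sox9 signal was not tested. At 3 dpi no gene had an r with Sox9 above 0.14 (Vim).

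At 7 dpi the genes most like Sox9 were Acan (r = 0.80), the core protein of the cartilage proteoglycan aggrecan, the collagens Col11a1 (0.77) and Col12a1 (0.77), the collagen chaperone Serpinh1 (0.75) and C1qtnf3 (0.75), over 3032 spots.

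Sox5, which forms a trio with Sox9 and Sox6 in cartilage, was scarce. It was at 0.593 CPM (26 UMIs) at day 0, 0.298 (5 UMIs) at 1 dpi, 0.481 (27 UMIs) at 3 dpi and 2.92 (122 UMIs) at 7 dpi. The 3 earlier sections cannot be put in order, while day 7 stood above each of them. Its ratio was 4.92 (3.20 to 7.83) against day 0 and 6.06 (3.97 to 9.57) against day 3.

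Sox6 behaved otherwise. It was at 59.9 CPM (2626 UMIs) at day 0, 28.4 (476 UMIs) at 1 dpi, 25.5 (1432 UMIs) at 3 dpi and 40.9 (1709 UMIs) at 7 dpi, so uninjured muscle held the most. It was called lower at 1 dpi (ratio 0.474, 0.429 to 0.523) and day 3 (0.426, 0.399 to 0.455) and not at 7 dpi (0.683, 0.642 to 0.726), where TMM factors give 0.448 and a lower call. The 7 fast myofibre genes summed to 122597 CPM at day 0, 61341 at 1 dpi, 35836 at 3 dpi and 75507 at 7 dpi, with 5, 6 and 1 of 7 called lower than at day 0; their part in the level of Sox6 was not tested. The genes most like Sox6 across spots were mostly fibre genes: Myh4 (r = 0.15), Acta1, Actn3, Tpm1 and Tnnt3 at day 0, Pvalb (0.14), Atp2a1 and Ttn first at 1 dpi, and Myl1 (0.37), Tpm1, Tnnc2, Acta1 and Aldoa at 3 dpi. At 3 dpi it was at 54.1 CPM in the fast myofibre spots against 23.9 elsewhere (ratio 2.27, 1.91 to 2.67), with 3.30% of all features called higher there. The same ratio was 1.27 (1.13 to 1.43) at day 0, 1.42 (1.104 to 1.80) at 1 dpi and 1.15 (0.976 to 1.36) at 7 dpi, none of them a call. At 3 dpi, in the monocyte/macrophage spots, Sox6 was at 0.202 of the level elsewhere (0.149 to 0.266; 7.12% of all features were called lower).

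Runx2, the factor of hypertrophy and of osteoblasts, was at 0.274 CPM (12 UMIs) at day 0, 1.37 (23 UMIs) at 1 dpi, 10.1 (567 UMIs) at 3 dpi and 9.94 (416 UMIs) at 7 dpi. Days 0 and 1 were low, and days 3 and 7 were high and did not differ beyond counting error (ratio 0.984, 0.865 to 1.12). The ratio to day 0 was 5.01 (2.39 to 11.1) at 1 dpi, from 23 single-UMI spots, and 36.9 (21.0 to 71.9) at 3 dpi. The step from day 1 to day 3 was 7.37 (4.86 to 11.7), with 15.8% of all features called higher. When spots rather than UMIs were averaged, these became 9.03, 21.8 and 2.41, all still calls.

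Runx3 was at 0.251 CPM (11 UMIs) at day 0, 1.55 (26 UMIs) at 1 dpi, 13.6 (763 UMIs) at 3 dpi and 3.35 (140 UMIs) at 7 dpi. Its ratio to day 0 was 6.18 (2.95 to 13.9) at 1 dpi and 54.2 (30.1 to 109) at 3 dpi, or 13.3 and 46.6 when spots were averaged. It was then called lower, the only member to be, at 0.246 of its day 3 level (0.204 to 0.295; 10.4% of all features were called lower). Runx1, the blood-lineage member of the family, followed a like course at 4.01, 44.4, 93.1 and 47.7 CPM, and Cbfb, the shared partner subunit, was called higher only at 7 dpi (2.09, 1.97 to 2.21).

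Immune RNA changed over the same days. The 9 monocyte/macrophage genes summed to 394, 1576, 8619 and 2083 CPM at days 0, 1, 3 and 7, with 9 of 9 called higher than day 0 at 3 dpi and none of them at 0 in any section. The 10 T and NK cell genes summed to 1.23, 1.55, 16.5 and 9.28 CPM, with 10 of 10 called higher at 3 dpi (Klrb1c was at 0 at day 0, Cd3e and Cd8a at 1 dpi). Their part in the levels of Runx2 and Runx3 was not tested by day, and by spot the values were as follows.

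At 3 dpi Runx3 was at 29.9 CPM in the 10% of spots richest in monocyte/macrophage RNA and at 10.6 CPM in the others (ratio 2.82, 2.42 to 3.28). Sox4 was also called higher in them (2.20, 1.79 to 2.68), and Runx2 fell just short of the call at 1.998 (1.65 to 2.41), with 13.9% of all features called higher. Those spots were deeper (median 28139 against 14983 UMIs) and poorer in fast myofibre RNA (5274 against 41438 CPM). The cell cycle list was at 618 against 283 CPM in them, the neutrophil list at 101 against 44.4 and the T and NK cell list at 28.2 against 14.4, and their part was not tested. With mitochondrial, haemoglobin and myofibre genes left out of the total, the ratio of Runx3 was 2.40 and that of Sox4 1.87, which is no call.

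Runx2 and Runx3 were both called higher in spots rich in cell cycle RNA, which were also deeper (median 24334 against 15315 UMIs). Runx2 was at 21.96 CPM in the 10% of spots richest in cell cycle RNA against 8.19 in the others (ratio 2.68, 2.23 to 3.21). The ratio of Runx3 there was 2.13 (1.80 to 2.51), with 12.3% of all features called higher. Without the muscle genes in the total Runx3 was at 1.84, which is no call, and the Runx2 ratio on that total is not given here. In the 10% richest in T and NK cell RNA the ratios were 1.49 (Runx2) and 1.58 (Runx3). The genes most like Runx3 were Apoe (r = 0.37), the ribosomal and elongation genes Eef1a1, Rps20 and Rpl37, and Lyz2 (0.36), a lysozyme of myeloid cells; those most like Runx2 were Eef1a1 (0.33), Ppia, Actg1, H2afz and Vim (0.30), none of them a gene of the skeletal lists. Both were nearly missing from the fast myofibre spots, Runx2 with 2 of 567 UMIs and Runx3 with 6 of 763, where 29.0% of all features were called lower.

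Cartilage RNA stayed low at the time of the Runx2 step. The 13 cartilage matrix genes summed to 42.5 CPM at 3 dpi against 2342 at 7 dpi, and Comp, which tendon also expresses, held 1932 of their 2385 UMIs at 3 dpi. In the spots with a Runx2 UMI at 3 dpi the list was at 46.3 CPM and in the others at 41.4 (ratio 1.12). Of the hypertrophic genes, 2 of 6 were called higher than day 0 at 3 dpi, namely Mmp13 (40.5, 17.1 to 126; 259 UMIs) and Col10a1 (19 UMIs against 0), and at 7 dpi 6 of 6 were. Runx2 was thus at its full section level at 3 dpi, before the cartilage matrix genes were.

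Sp7 and Dlx5 were the latest. Sp7 had 1 UMI at day 0, 1 at 1 dpi, 3 at 3 dpi and 1615 at 7 dpi (38.6 CPM, 36.7 to 40.5). Nothing separates the 3 earlier sections from each other, and day 7 was 722 times day 3 (247 to 3505) and 1694 times day 0 (304 to 66939). Dlx5 had 1, 0, 5 and 172 UMIs, which is 4.11 CPM (3.52 to 4.77) at 7 dpi and 46.1 times day 3 (19.4 to 144), and its count of 0 at 1 dpi allows up to 0.220 CPM. Between 3 and 7 dpi 5 members were called higher (Sox9, Sox5, Sp7, Dlx5 and Sox4), where 14.5% of all features were.

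Sox4 was at 14.7 CPM (647 UMIs) at day 0, 7.63 (128 UMIs) at 1 dpi, 8.75 (491 UMIs) at 3 dpi and 39.1 (1635 UMIs) at 7 dpi. With TMM factors Sox4 was at 0.454 of day 0 at 1 dpi and 0.405 at 3 dpi, lower calls that the given scale lacks. Days 1 and 3 did not differ beyond counting error, and day 7 was 4.47 times day 3 (4.04 to 4.95) and 2.65 times day 0 (2.42 to 2.91; 1.74 with TMM factors). At day 0 it had no close partner across spots (largest r 0.096, with Saraf), whereas at 7 dpi the nearest genes were the fibrillar collagens Col1a1 (0.51), Col5a1 (0.50) and Col5a2 (0.50).

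Creb3l1 was at 24.9 CPM (1092 UMIs) at day 0, 5.19 (87 UMIs) at 1 dpi, 19.5 (1096 UMIs) at 3 dpi and 33.5 (1402 UMIs) at 7 dpi. It dipped at 1 dpi (ratio to day 0 of 0.208, 0.165 to 0.259), was called higher at 3 dpi than at 1 dpi (3.77, 3.03 to 4.74), and at 7 dpi was 1.35 times day 0 (1.24 to 1.46) and 0.883 times it with TMM factors, with no call on either scale. Collagen genes were its nearest genes in the 3 sections with at least 200 UMIs of it, Col3a1 (r = 0.34), Col6a1 and Col1a2 at day 0, Col1a2 (0.23) at 3 dpi and Col1a2 (0.54) at 7 dpi. In spots rich in the MSC (mesenchymal stromal cell) list it was called higher at day 0 (2.22, 1.88 to 2.597; 12.6% of all features) and day 1 (2.72, 1.35 to 5.04, from 12 UMIs; 26.3%) but not at 3 dpi (1.78) or day 7 (1.01).

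The share of spots with a UMI gave much the same order once every spot was thinned to 2000 UMIs, which left 2090, 2154, 3020 and 2948 spots and dropped 17, 513, 9 and 84. At 7 dpi Sox9 was expected in 12.6% of spots (11.4 to 13.8), Sp7 in 6.74%, Sox4 in 6.46%, Creb3l1 in 5.98%, Runx2 in 1.76%, Dlx5 in 0.729% and Sox5 in 0.528%, and these 7 were the members highest at 7 dpi. Runx3 was in 2.04% of spots at 3 dpi and 0.611% at 7 dpi, and Sox6 in 11.2% at day 0 and 8.01% at 7 dpi. Runx2 was in 1.56% of spots at 3 dpi, within counting error of day 7. Creb3l1 was in 4.92% at day 0 (4.04 to 5.95), an interval that overlaps that of day 7 (5.14 to 6.89). On all UMIs, Creb3l1 was in more spots at day 0 (35.1%) than at 7 dpi (28.1%). Runx2 was likewise in more at 3 dpi (14.8%) than at 7 dpi (10.8%). Without thinning, Sox9 had a UMI in 7.02%, 9.97%, 22.3% and 39.2% of the spots at days 0, 1, 3 and 7, a series in which day 3 lies above day 1, the reverse of the thinned shares (4.75% at 1 dpi and 2.93% at 3 dpi).

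**Figure D2:**
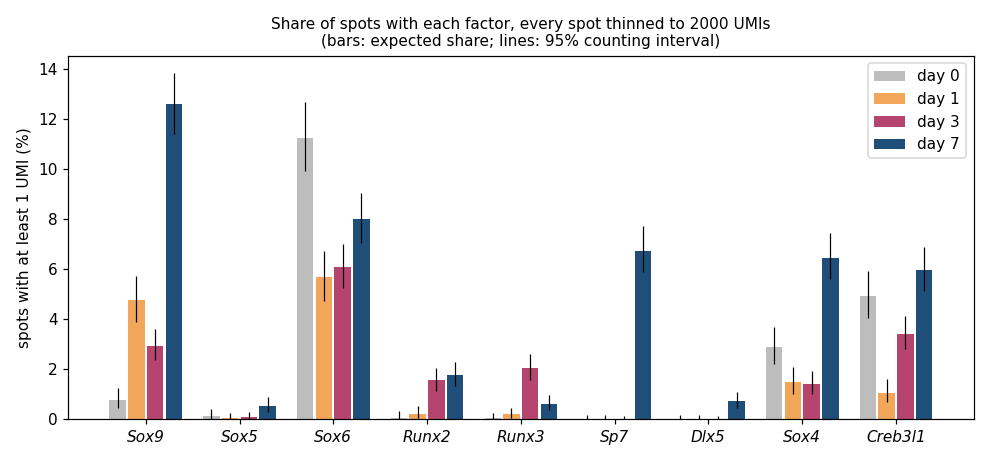
The bars give, for each factor on the x axis and each section by colour, the expected share of spots in percent with at least 1 UMI after thinning each spot to 2000 UMIs, and the lines the exact binomial 95% intervals. Sox9 goes from 2.93% at 3 dpi to 12.6% at 7 dpi, Sp7 is visible at 7 dpi only (6.74%), and Sox6 is highest at day 0 (11.2%).

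Other genes of the same families and pathways were counted by list. Of the 11 other SOX and RUNX family genes, 1 was called higher and 1 lower than day 0 at 1 dpi (median ratio 0.981), 2 and 1 at 3 dpi (0.919), and 5 and none at 7 dpi (2.09). Sox11, a SoxC relative of Sox4, was at 0.957, 1.67, 18.0 and 6.17 CPM, highest at 3 dpi (18.8 times day 0, 13.8 to 26.3), unlike Sox4. The endothelial gene Sox18 was called higher at 7 dpi only (2.91, 2.62 to 3.24), and Sox12 likewise (3.82, 3.03 to 4.85).

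Among 30 other skeletal transcription factors, of which 27 passed the count filter, 2 were called higher and 2 lower at 1 dpi (median ratio 0.864), 6 and 2 at 3 dpi (1.23) and 17 and none at 7 dpi (3.09). The medians over the members were 0.517 (7 of the 9), 0.812 and 13.3, and over all features tested 1.16, 1.47 and 1.57. In these medians genes under 3 UMIs in both sections were left out and other counts under 3 were entered as 3, and at 1 dpi Sp7 and Dlx5 were such genes. Scx, the tendon and enthesis factor, was at 5.27, 20.4, 79.8 and 24.7 CPM, higher at 1 dpi and highest at 3 dpi (15.2 times day 0, 13.3 to 17.4). At 7 dpi the factors with the largest ratios included Foxa3 (36.7, 6.17 to 1491), the limb gene Pitx1 (13.1, 7.29 to 25.9), Foxc2 (7.57, 3.75 to 17.3), the hedgehog effector Gli1 (7.15, 5.07 to 10.3) and Mkx (6.35, 3.89 to 10.9). Dlx6, the neighbour and relative of Dlx5, had no UMI before day 7 and 14 at 7 dpi. Nkx3-2 and Barx1 had no UMI in any section.

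At 7 dpi 8 of the 9 members were called higher in the 304 spots richest in cartilage matrix RNA, where 19.0% of all features were. The spot at the edge of these 304 held 4500 CPM of the list and the next one 4487, and 56 spots lay within 10% of that edge. Dlx5 was at 22.2 CPM inside and 2.05 outside (ratio 10.8, 7.93 to 14.8), Sp7 at 201 and 20.1 (10.0, 9.10 to 11.1) and Sox9 at 415 and 46.8 (8.88, 8.31 to 9.49). These were the highest of the 9. The ratios of Runx2 (6.76, 5.54 to 8.24), Sox5 (6.74), Runx3 (5.34), Creb3l1 (4.86) and Sox4 (3.77, 3.38 to 4.19) followed. Sox6, a Sox9 partner in cartilage, was the exception at 37.1 against 41.3 CPM (0.900, 0.760 to 1.06).

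The comparison was repeated at lower fast myofibre share, without matching that share between the groups, so its part was not tested. Taken were the spots on the lower side of the median share of fast myofibre RNA, 297 cartilage matrix spots and 1219 others. There 11.3% of all features were called higher, the ratio was 7.74 for Sp7, 7.42 for Dlx5, 6.83 for Sox9 and 2.68 for Sox4, the same 8 members were called higher, and Sox6 stood at 36.2 against 35.98 CPM (1.01, 0.838 to 1.2001). Cell cycle RNA went with the same spots, at 356 CPM in the cartilage matrix spots against 90.9 elsewhere, as did that of the tendon list (1477 against 635 CPM), and monocyte/macrophage RNA was not higher there (1787 against 2117 CPM). The part of these lists was not tested. Median depth was alike (12155 and 12117 UMIs).

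**Figure D3:**
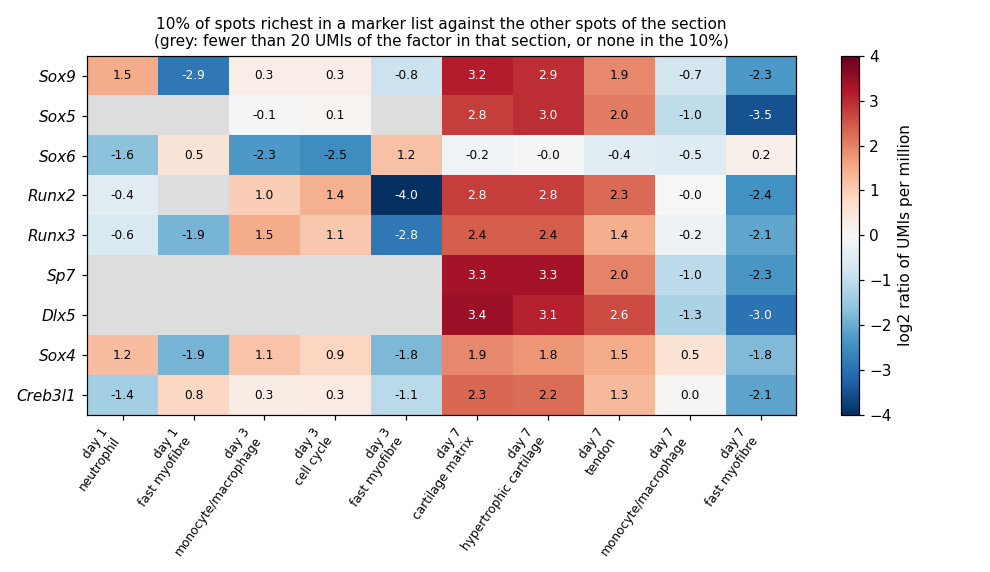
Each cell gives the log2 ratio of a factor's CPM in the 10% of spots richest in a marker list to its level in the other spots of that section (columns, day and list; rows, factors); red is higher, blue lower, and grey marks factors with fewer than 20 UMIs in the section or none in the 10%. At 7 dpi every factor but Sox6 is red in the cartilage matrix column, Dlx5 most of all (a ratio of 10.8), and at 1 dpi Sox9 is blue in fast myofibre spots (a ratio of 0.137).

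Ordering the day 7 spots in 10 bins by their cartilage matrix share showed where the levels climbed. Sox9 went from 13.2 CPM in the poorest bin to 139 in the second richest and 417 in the richest. Sp7 went from 7.99 through 58.9 to 202 CPM and Dlx5 from 0 through 8.22 to 22.3 CPM, so most of the climb lay in the richest 2 bins. Sox6 was between 36 and 49 CPM in every bin. Even in the poorest bin Sp7 had 32 UMIs, and in the 10% richest in fast myofibre RNA it was at 8.23 CPM, when the whole day 3 section had 0.0535 CPM. Cartilage matrix RNA itself was at 323 CPM in those fibre-rich spots against 42.5 CPM in the day 3 section. Whether RNA from neighbouring tissue reached them was not tested.

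**Figure D4:**
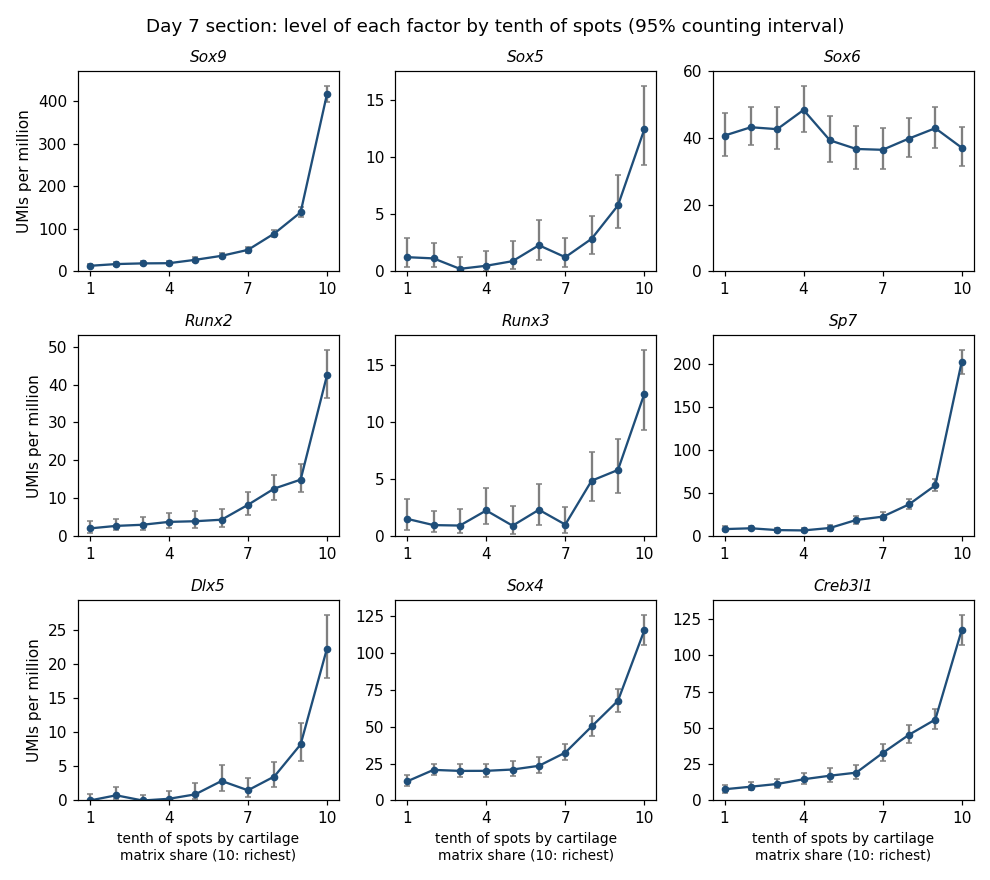
The 3032 spots of the day 7 section are split into 10 bins by the share of cartilage matrix UMIs (x axis, 10 is the richest), and each panel gives 1 factor's level in CPM with exact Poisson 95% intervals, each panel on its own scale from 0. Sox9 reaches 417 and Sp7 202 in the richest bin, and Sox6 shows no climb.

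The bone matrix list could be read less firmly. Ibsp, which hypertrophic chondrocytes also make, and Smpd3 held 73.0% and 25.9% of its UMIs at 7 dpi, the osteocalcin gene Bglap had 2 UMIs and Bglap2 none, and 24 of the 304 richest spots held fewer than 3 UMIs of the list. In these spots, too, the 8 members other than Sox6 were called higher (Sp7 9.79, Dlx5 11.1, Sox9 7.68), where 17.0% of all features were. Since 230 of the 304 spots were cartilage matrix spots as well, the pair of lists hardly separates tissues. The 230 spots rich in both (2783409 UMIs) were compared with the 74 rich in cartilage matrix alone (1496790 UMIs, so deeper per spot), where 4.12% of all features were called higher. Sp7 was at 258 and 95.5 CPM (ratio 2.70, 2.26 to 3.26), Sox5 at 15.8 and 6.01 (2.63, 1.27 to 6.13), Dlx5 at 27.7 and 12.0 (2.30, 1.36 to 4.08) and Runx2 at 51.7 and 24.7 (2.09, 1.45 to 3.09), while Sox9 (1.80), Runx3 (1.65), Creb3l1 (1.55) and Sox4 (1.15) were not called. Cartilage matrix RNA differed between these spots as well, with Col2a1 at 5488 against 1226 CPM and Acan at 2004 against 984, and Col10a1, the collagen of hypertrophic cartilage, was at 99.9 against 6.01. The 74 spots rich in bone matrix alone (605897 UMIs) were mixed. In them Runx2, at 6.60 CPM from 4 UMIs, was at 0.267 of its level in the cartilage-only spots (0.0691 to 0.743). Sox9 stood at 0.345 (0.257 to 0.456) of its level there, and Sp7 at 0.501 (0.324 to 0.751), which is no call. Runx3, Sox4 and Creb3l1 were also lower without a call. Sox5 (1.65), Sox6 (1.63) and Dlx5 (13.2 against 12.0 CPM) were higher without a call. Against the spots rich in neither, Dlx5 (7.07, from 8 UMIs), Sox5 (5.81, from 6 UMIs), Creb3l1 (2.68), Sp7 (2.44), Sox9 (2.05) and Sox4 (2.04) were called higher. Runx2 (6.60 against 6.25 CPM), Runx3 and Sox6 were not. No share over all features was taken for the comparisons of these 74 spots, so their calls are not read as particular to the members.

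Spots with more than 1 factor were compared with the product of the separate shares, at 2000 UMIs per spot. At 7 dpi the product lay below the interval of the observed share for 14 of the 36 pairs, and at days 0, 1 and 3 for none. At those earlier days the most-shared pair was expected in 11.5, 4.74 and 4.70 spots, so few that a pair could hardly be called. Sox9 and Sox4 at 1 dpi had a ratio of 2.26 without a call. The count of none therefore says little about sharing before day 7. No share over other gene pairs was taken, so the count of 14 has no baseline and is not read as particular to the members. At 7 dpi Sox9 and Sp7 shared 2.58% of spots (2.04 to 3.22) against a product of 0.849%, a ratio of 3.04. Sp7 and Dlx5 shared 0.201% (ratio 4.09) and Runx2 and Sp7 0.433% (ratio 3.65), on 5.92 and 12.8 expected spots. None of the 8 pairs with Sox6 was among the 14, and their ratios lay between 0.812 and 1.11. Within the 356 thinned spots rich in cartilage or bone matrix, no pair stood above its product (Sox9 and Sp7 at 17.7% against 14.8%), and among the other 2592 spots Sox9 and Sp7 was the only one (0.499% against 0.265%).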

How the data were processed

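Spatial RNA was measured on 10 µm cryosections, with 1 section per day, grouped by the labels. What the authors deposited are unnormalized UMI counts, 1 matrix of genes by spots for each section, made with Space Ranger and kept for spots over tissue as detected on images; the file headers name version 1.2.0, the methods of the study another one, and the labels mm10. Positions and images were not used here, no deconvolution was run, and no doublet caller, since a spot is not a cell.

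Counts were summed per section and scaled to CPM. Ratios, intervals and calls are as defined in the report, for features with at least 10 UMIs over the 4 sections, and all 9 members passed. With 1 section per day no fit across genes has a spread to estimate, so there is no test. The level of a count of 0 is bounded by the upper limit of its Poisson interval. Thinned shares are exact hypergeometric expectations with Clopper-Pearson intervals from the rounded expected count. Spots of a list are the 10% with the highest share of its UMIs, used where each held at least 3 list UMIs; the neutrophil, cell cycle, T and NK cell, MSC, tendon, hypertrophic and bone matrix groups did not meet this at the day shown (tendon met it at day 3) and are read with at least 1, a change made after seeing the data, as were the views by fast myofibre share, by spots with a member's UMI and of pairs within spot classes. Likeness used Pearson residuals (theta 100) of genes with at least 200 UMIs in the section, and the 5 closest genes were named. Of other lists, up to 6 called genes with the largest ratio were named; genes outside this rule (Runx1, Cbfb, Sox11, Sox12, Sox18, Scx, Mmp13, Col10a1, Comp, Ibsp, Smpd3 and genes at 0) were named for their place in a list or after their values were seen. The 9 members and all 18 lists were chosen with earlier results of these data known.

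Promoter windows came from RefSeq (GRCm38.p6), with entries for 5 of the 9 members; Sox9, Sp7, Dlx5 and Creb3l1 are only named. Alternatives were scaling by TMM or by DESeq2, a section total lacking the genes of mitochondria, haemoglobin and fibres, a minimum of 1000 UMIs per spot, a mean over spots, a ratio of 1.5, no count filter, other thinning depths and the richest 5% or 20% of spots. Calculations were tested on simulated data. Scaling used edgeR 4.0.16 and DESeq2 1.42.0 in R 4.3.3; all else ran in Python 3.11.15 with pandas 2.3.3, SciPy 1.17.1, NumPy 2.4.6 and matplotlib 3.10.9 for the plots.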

Additional observations from a re-analysis of the deposited data

How the results depend on the processing

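The counts of members called kept within 1.5 times the given value in 48 of 52 settings. Between days these counts add higher and lower calls, so they do not show that the same members were called. At 7 dpi with TMM factors, for example, Sox4 lost its higher call and Sox6 gained a lower call. Of 292 alternative values of single ratios, 63 lay outside the counting interval of the given one and 12 on the other side of 1, none of these 12 from a ratio that was called. The 4 other settings of the counts were all in the pairs of members sharing spots at 7 dpi, of which there were 14. Thinning to 1000 UMIs per spot left 7 and using all UMIs, with unequal depth, gave 35; within cartilage or bone matrix spots there were 0 and within the other spots 1, both views chosen after seeing the data. The cause was not tested. Calls between days changed in 14 of 220 values. TMM and DESeq2 size factors took Sox4 both to 0.454 of day 0 at 1 dpi, 0.405 and 0.402 at 3 dpi (all lower calls) and 1.74 and 1.70 at 7 dpi (call lost), Sox6 at 7 dpi to 0.448 and 0.439, and Sox9 at 3 dpi to 0.446 and 0.442 of 1 dpi; a minimum of 1000 UMIs per spot took Sox4 at 1 dpi to 0.498. A mean over spots took Sox4 and Sox6 at 3 dpi to 0.481 and 0.531 of day 0 and Sox9 at 3 dpi to 0.466 of 1 dpi. With TMM factors the 7 dpi ratios of Sox9, Runx2 and Sp7 to day 0 were 14.2, 23.9 and 1111, still calls, and that of Creb3l1, not called, went from 1.35 to 0.883. Leaving out a replicate could not be done with 1 section per day, and no paired analysis was possible because each group holds 1 sample. At the depth of day 1 a single UMI is 0.0596 CPM, so levels of Sp7, Dlx5 and Sox5 rest on 0 to 5 UMIs there.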
